A study of Mus musculus with 14 samples.

Results

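The genes described here are 10 that write or read DNA methylation and histone H3 lysine 9 (H3K9) methylation, namely Dnmt1, Uhrf1, Dnmt3a, Dnmt3b, Dnmt3l, Setdb1, Trim28, Ehmt1, Ehmt2 and Cbx5. They were chosen by name and not by a rule on measured values, though earlier results of these data were known. They are 10 of 21887 protein-coding genes in the RefSeq annotation of GRCm38.p6, the assembly behind mm10. For each, all listed regions that touched the gene or the 10000 bp on either side of it, called its window below, were taken from 7 peak lists. The lists come from chromatin immunoprecipitation followed by sequencing (ChIP-seq) in E14 mouse embryonic stem cells, a line that the labels describe as grown on gelatin in 2i and LIF medium. There were 14 libraries, 2 for each of 7 lists, and every list was called on its 2 libraries pooled.

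After 1 µM doxorubicin, which traps topoisomerase II on broken DNA, for 6 h, cells were left in drug-free medium for 6 h and harvested 12 h after the drug was first added. Vehicle cells went through the same steps with DMSO in place of the drug. Both treatments were profiled for H3K27ac, an acetylation found at active promoters and enhancers, and for H3K9me3, which marks heterochromatin. An antibody against the HA tag was used on cells with HA-tagged p53 and on cells with no tag, the background of that antibody. Titles of the HA libraries give no treatment, and both p53 titles carry the same replicate number. The last list is input chromatin from doxorubicin-treated cells. The labels mention selection of stable lines by antibiotics without saying which libraries this concerns, so whether the tagged cells were a single clone is not stated.

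In mammals, Dnmt1 copies DNA methylation onto the new strand after replication, and Uhrf1 brings it to hemimethylated DNA. Dnmt3a and Dnmt3b set methylation at sites that had none, helped in germ cells and early embryos by the catalytically inactive Dnmt3l. KRAB zinc finger proteins recruit Trim28 and through it Setdb1, which trimethylates H3K9 at retroelements in embryonic stem cells, while Ehmt2 (G9a) and Ehmt1 (GLP) form a heterodimer that makes mostly H3K9me2, and Cbx5 (HP1 alpha) binds methylated H3K9.

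Pileup is the number of fragments over the summit of a region. It is given in FPM, fragments per 1000000 fragments kept after removal of duplicates. Those kept were 17036528 for doxorubicin and 20647895 for vehicle H3K27ac, 14402634 for doxorubicin and 15992125 for vehicle H3K9me3, and 45238471 for p53, 49588950 for the untagged control and 16583331 for the input. The p53 and untagged pileups had been scaled by the peak caller to the depth of the input and are per 1000000 of its fragments. The lowest pileup that was listed was 0.470 FPM (8 fragments) in the doxorubicin and 0.436 FPM (9 fragments) in the vehicle H3K27ac list, and a place with no region has no value. Intervals are exact 95% intervals, Poisson for a pileup and conditional binomial for a ratio. They cover counting error only, since pooled lists hold no replicate spread, and no test between treatments could be made. The stem cell identity was visible in the lists, because 8 of 8 stem cell genes (Pou5f1, Nanog, Sox2, Klf4, Esrrb, Zfp42, Tdgf1 and Utf1) had H3K27ac within 1000 bp of a gene end after either treatment, against 2 of 6 fibroblast genes after doxorubicin and 1 of 6 after vehicle. The p53 list held a region at all 5 well-known targets looked up, Cdkn1a, Mdm2, Ccng1, Bbc3 and Bax, with the authors' fold enrichments of 64.2, 32.9, 35.4, 32.5 and 23.5 at the highest region.

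The RefSeq promoter table of GRCm38.p6 gave 19 annotated starts for the 10 genes. Of these, 6 are shown as 250 bases each, 230 before the start and 20 from it, 5′ to 3′ on the strand of the gene. The first pair is from Dnmt1, whose first start had no H3K27ac region within 1000 bp in either list and whose start 2 had one in both. That region also covers start 3, which is not shown. Its summits lie 7543 bp from the 5′ end after doxorubicin and 7573 bp after vehicle. They are nearer to start 3, at 7265 bp, than to start 2, at 6909 bp. Uhrf1 and Trim28 follow as starts with less H3K27ac after doxorubicin, and Dnmt3b and Dnmt3l as a promoter with many CpG dinucleotides and one with fewer. Capitals mark matches to CCAAT, the GC box GGGCGG, or TTTGAA, the cell cycle gene homology region (CHR), on either strand, and matches may overlap.
Dnmt1 start 1, chr9:20959869-20960118, minus strand: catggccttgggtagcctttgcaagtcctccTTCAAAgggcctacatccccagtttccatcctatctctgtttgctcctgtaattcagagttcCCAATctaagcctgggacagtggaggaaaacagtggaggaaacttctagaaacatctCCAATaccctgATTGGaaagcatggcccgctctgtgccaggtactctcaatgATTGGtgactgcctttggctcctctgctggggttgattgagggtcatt
Dnmt1 start 2, chr9:20952960-20953209, minus strand: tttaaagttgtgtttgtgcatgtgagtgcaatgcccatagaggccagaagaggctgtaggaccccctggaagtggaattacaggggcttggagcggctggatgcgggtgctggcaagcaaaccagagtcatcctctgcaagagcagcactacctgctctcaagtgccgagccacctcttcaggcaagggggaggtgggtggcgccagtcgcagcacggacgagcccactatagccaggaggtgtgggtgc
Uhrf1 start 1, chr17:56303107-56303356, plus strand: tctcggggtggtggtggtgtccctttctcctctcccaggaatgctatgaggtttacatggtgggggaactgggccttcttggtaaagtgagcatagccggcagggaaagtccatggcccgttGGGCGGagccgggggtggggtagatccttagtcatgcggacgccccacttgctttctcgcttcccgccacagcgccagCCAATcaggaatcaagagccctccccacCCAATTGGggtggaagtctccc
Trim28 start 1, chr7:13023922-13024171, plus strand: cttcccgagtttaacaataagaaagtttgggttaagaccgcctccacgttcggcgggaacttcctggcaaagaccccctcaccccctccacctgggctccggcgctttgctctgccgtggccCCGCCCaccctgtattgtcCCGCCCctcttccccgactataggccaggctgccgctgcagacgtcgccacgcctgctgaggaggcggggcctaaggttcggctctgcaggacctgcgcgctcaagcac
Dnmt3b start 1, chr2:153649219-153649468, plus strand: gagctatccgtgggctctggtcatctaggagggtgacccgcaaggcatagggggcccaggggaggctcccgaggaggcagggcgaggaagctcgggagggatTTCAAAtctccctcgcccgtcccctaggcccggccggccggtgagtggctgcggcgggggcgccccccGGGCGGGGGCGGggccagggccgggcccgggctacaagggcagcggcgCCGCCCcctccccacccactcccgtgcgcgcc
Dnmt3l start 1, chr10:78042057-78042306, plus strand: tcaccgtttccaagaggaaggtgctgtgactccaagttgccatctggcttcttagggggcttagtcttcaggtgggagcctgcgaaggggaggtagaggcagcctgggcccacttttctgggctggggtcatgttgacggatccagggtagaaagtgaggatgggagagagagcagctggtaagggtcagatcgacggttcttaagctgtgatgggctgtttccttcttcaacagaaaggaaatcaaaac

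The Dnmt1 stretch at start 1 holds 1 CpG, 4 CCAAT words and 1 CHR word, while the stretch at start 2, 6909 bp further into the gene, holds 7 CpG and none of the words. The Uhrf1 stretch has 10 CpG with 3 CCAAT words and 1 GC box, and that of Trim28 has 19 CpG with 2 GC boxes. Dnmt3b shows 24 CpG, 3 GC boxes and 1 CHR word in the stretch, against 5 CpG and no word for Dnmt3l. Over the full table windows of 300 bases, from 250 before the start to 50 after it, the 19 windows of the 10 genes had a median of 23 CpG, against 7 in all 32817 windows, and 64.0% G and C, against 52.7%. The window of Dnmt3l start 1 held 6 CpG, more than in 43.6% of all windows. The full table covers 27025 gene symbols, more than the 21887 protein-coding genes, so its windows are not limited to protein-coding genes. A comparison with promoters of protein-coding genes alone was not made. The GC box was found in at least 1 window of all 10 genes and in 16 of the 19 windows, against 35.6% of all windows. CCAAT was present in 6 of 19 windows, against 37.4% of all, and TTTGAA in 2 of 19, against 17.9%. A word of the E2F family (TTTCCCGC, TTTCGCGC, TTTGCCGC or TTTGGCGC) was present in 2 of 19, at start 3 of Dnmt1 and start 2 of Uhrf1, against 2.26% of all windows. The window of Dnmt1 start 3 also held 33 CpG, 3 CCAAT words and 2 GC boxes. TATAAA was found in 0 of 19 windows, against 13.6% of all. The p53 half-site was also in 0 of the 19, against 8.36% of all, and the full p53 site, a pair of half-sites up to 13 bases apart, in 0, against 0.0731%. All words were searched on both strands, and of the 19 windows only those of Dnmt3a starts 1 and 2 overlap in part.

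All 10 genes had H3K27ac in their windows after doxorubicin and all 10 after vehicle, where 77.4% of protein-coding genes had it after doxorubicin and 71.9% after vehicle. The genes are longer than most, with a median of 35999 bp against 17169 bp for all protein-coding genes, which gives a region more room to fall in. The highest pileup after doxorubicin was at Trim28 (4.05 FPM), followed by Cbx5 (3.99), Uhrf1 (3.76), Dnmt1 (3.23), Ehmt2 and Dnmt3l (2.64 each), Setdb1 (2.23), Dnmt3a (2.00), and Dnmt3b and Ehmt1 (1.06 each). After vehicle the order was Uhrf1 (7.07), Cbx5 (6.49), Trim28 (5.52), Setdb1 (3.83), Dnmt3l (2.47), Ehmt2 (2.18), Dnmt1 (2.03), Dnmt3a (1.02), Ehmt1 (0.630) and Dnmt3b (0.581). Neighbours in either order had overlapping intervals in every case. Genes far apart in the order had separate intervals: the interval at Uhrf1 was 2.89 to 4.80 after doxorubicin and 5.97 to 8.32 after vehicle, while that at Dnmt3b was 0.626 to 1.67 after doxorubicin and 0.300 to 1.02 after vehicle. Among protein-coding genes with a region, the vehicle level of Uhrf1 lay above 97.5% of genes and that of Cbx5 above 96.6%, while the vehicle level of Dnmt3b lay above 4.27% and that of Ehmt1 above 6.82%.

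**Figure D1:**
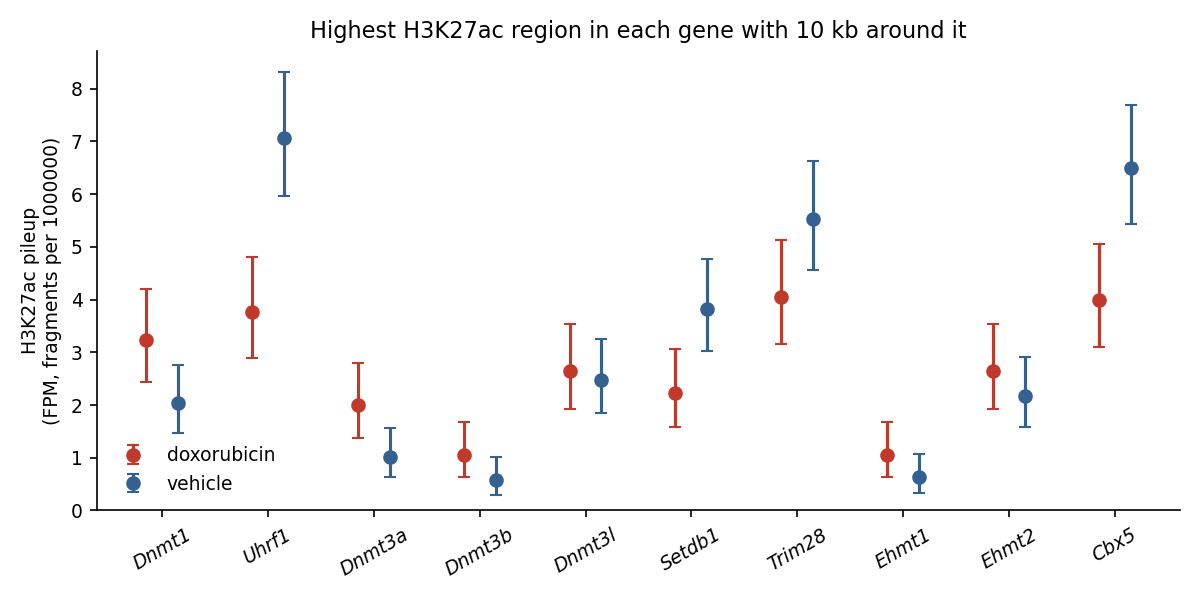
Pileup of the highest H3K27ac region in the window of each of the 10 genes, in FPM, after doxorubicin (left point, red) and after vehicle (right point, blue), with exact 95% Poisson intervals from 1 pooled list per treatment. Uhrf1 and Cbx5 stand at 3.76 and 3.99 after doxorubicin and at 7.07 and 6.49 after vehicle, and Dnmt3b and Ehmt1 are lowest in both.

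To compare treatments, overlapping regions of the 2 lists were joined into sites, and the site of a gene's window with the highest sum of both pileups is called its leading site. A difference of at least 1.5-fold at that site was counted. At 3 genes, Dnmt3a, Dnmt3b and Ehmt1, the leading site was listed after doxorubicin and not after vehicle, which held for 11.9% of protein-coding genes with a site, and at 0 it was listed after vehicle alone, which held for 3.34%. At the other 7 the site was in both lists. It was at least 1.5-fold higher after doxorubicin at 1 gene, Dnmt1, where 25.6% of protein-coding genes were, and at least 1.5-fold lower at 3, Uhrf1, Setdb1 and Cbx5, where 12.2% were. The median log2 ratio of the 7 was -0.49, from -0.98 to 1.54, against 0.06 over 14706 protein-coding genes, and its sign depended on the choice of site. It was 0.19 over all 10 genes when the highest region of each list was taken, with 4 genes higher (Dnmt1, Dnmt3a, Dnmt3b and Ehmt1) and 3 lower. With a window of 1000 bp it was 0.32, with 3 higher (Dnmt1, Dnmt3l and Trim28) and 3 lower, and with 25000 bp the 1 higher gene was Dnmt3b in place of Dnmt1. The 3 lower genes were Uhrf1, Setdb1 and Cbx5 under each of these settings. Over all 52 H3K27ac sites that both lists had in the 10 windows, the median log2 ratio was 0.18, and 13 sites (25.0%) were at least 1.5-fold higher and 8 (15.4%) lower after doxorubicin, where 25.9% and 10.6% of such sites over the genome were. Ratios of all H3K27ac sites found in both lists had a median log2 of 0.16, and lowering every ratio by that amount leaves Dnmt1 higher and Uhrf1, Setdb1 and Cbx5 lower, and adds Trim28 to the lower ones. Fewer cells with the mark and less of it per cell cannot be told apart in these lists, and neither can a change of the mark over the whole genome and a change of depth.

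**Figure D2:**
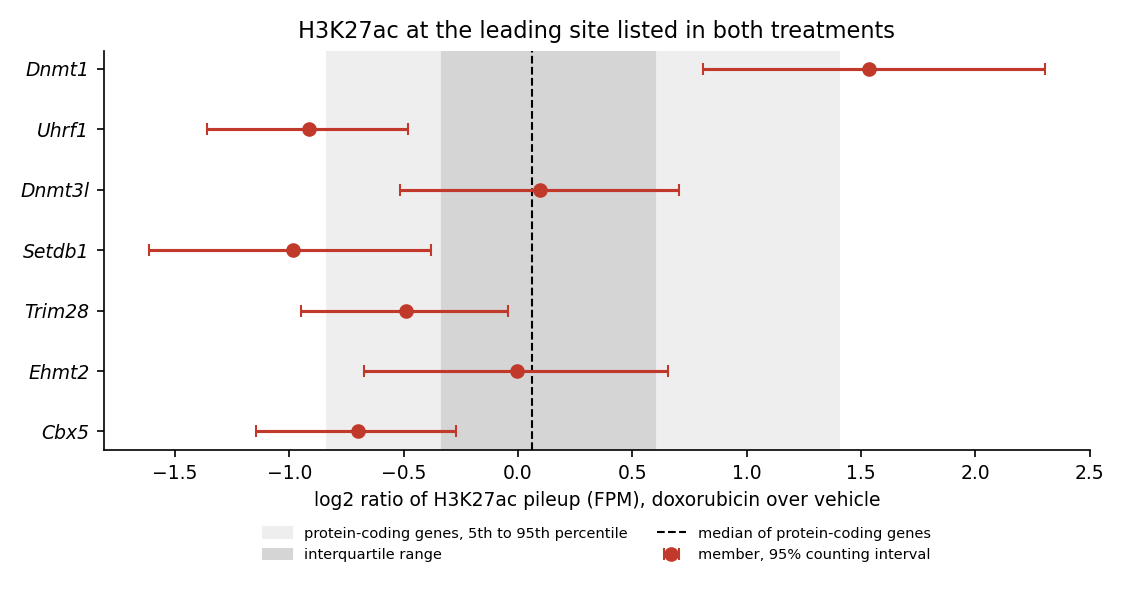
Log2 ratio of H3K27ac pileup in FPM, doxorubicin over vehicle, at the leading site of the 7 genes where both lists have it, with conditional binomial 95% intervals, against the spread of 14706 protein-coding genes in grey (interquartile range dark, 5th to 95th percentile light, median dashed). Dnmt1 lies at 1.54, beyond the 95th percentile of 1.40, and Uhrf1 and Setdb1 lie at -0.91 and -0.98, beyond the 5th percentile of -0.83.

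Dnmt1 (chr9:20907206-20959888, minus strand), the maintenance methyltransferase, carried more H3K27ac inside the gene after doxorubicin. Its leading site, chr9:20941839-20949533, had 3.23 FPM (55 fragments, interval 2.43 to 4.20) after doxorubicin and 1.11 FPM (23 fragments, interval 0.706 to 1.67) after vehicle. The doxorubicin value was 2.90 times the vehicle value (interval 1.75 to 4.94), and the intervals of the 2 pileups did not overlap. The site lies inside the gene, with its summit 16219 bp from the 5′ end after doxorubicin and 13307 bp after vehicle, so the summits are not at the same base. The window held 22 regions covering 34095 bp after doxorubicin and 11 covering 16416 bp after vehicle. Of 21 sites, 12 were listed after doxorubicin and not after vehicle, 0 the other way round, and 9 in both. Over the genome 40.3% of H3K27ac sites were listed after doxorubicin alone and 18.3% after vehicle alone, in lists of 112259 and 82177 regions. Among the 9 in both, 5 were at least 1.5-fold higher after doxorubicin and 0 lower, with ratios from 0.858 to 3.31. The site that covers starts 2 and 3, on the other hand, had 2.17 FPM after doxorubicin and 2.03 after vehicle, a ratio of 1.07 (interval 0.667 to 1.70). The 5 higher sites all lay inside the gene, as did 9 of the 12 listed after doxorubicin alone, while the other 3 of those were outside it with 0.587 to 0.880 FPM. With a window of 25000 bp the leading site became another one and its log2 ratio was -0.36.

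Uhrf1 (chr17:56303337-56323486, plus strand), the partner of Dnmt1 in maintenance, had the highest vehicle level of the 10 genes and less after doxorubicin. Its leading site, chr17:56298618-56309558, covers both annotated starts, whose first sequence is shown above. It reached 3.76 FPM (64 fragments) after doxorubicin and 7.07 FPM (146 fragments) after vehicle. The ratio was 0.531 (interval 0.390 to 0.717), and the intervals of the pileups were apart. The summits lay 459 bp inside the gene after doxorubicin and 410 bp after vehicle. The site overlaps the neighbouring gene Arrdc5, whose nearest end is 3510 bp from the doxorubicin summit. The other sites in both lists were not lower after doxorubicin. A pair inside the gene, chr17:56310106-56311381 and chr17:56311839-56313623, passed 1.5-fold in the other direction, with ratios of 1.51 (interval 0.662 to 3.54) and 1.73 (interval 0.832 to 3.71) on 12 to 20 fragments. A large site across the 3′ end, chr17:56314826-56325834, had 3.17 FPM after doxorubicin, with the summit inside the gene, and 2.42 after vehicle, with the summit beyond its end, a ratio of 1.31 (interval 0.874 to 1.96). That site is also the leading site of the next gene, Kdm4b, an H3K9 demethylase gene named here after its values were seen. Over the whole window, covered length was 23556 bp after doxorubicin and 24281 bp after vehicle. The region over the starts alone was shorter after doxorubicin, at 6649 bp, than after vehicle, at 8443 bp.

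**Figure D3:**
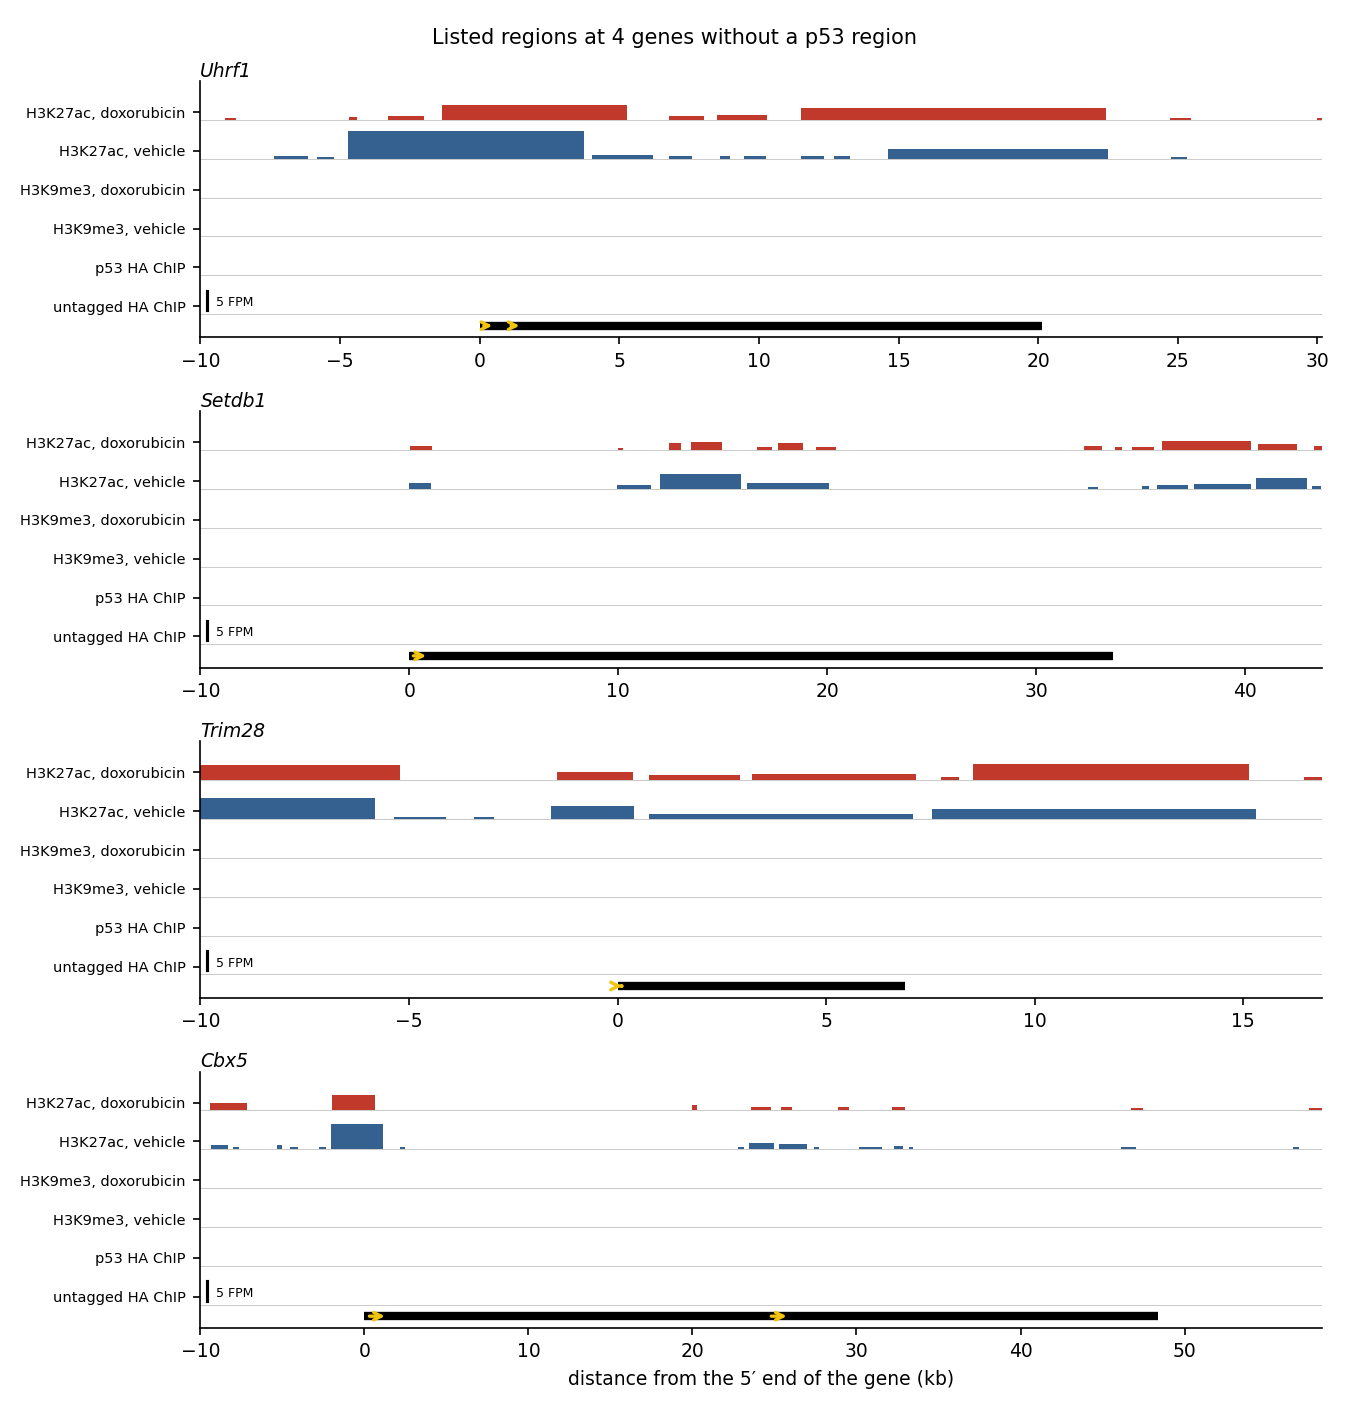
Listed regions at Uhrf1, Setdb1, Trim28 and Cbx5, drawn 5′ to 3′ by distance from the 5′ end in kb, with bar heights as pileup in FPM (scale bar 5 FPM), genes in black and annotated starts as yellow arrows. The H3K27ac region over the start of Uhrf1 is 3.76 high after doxorubicin and 7.07 after vehicle, and rows for H3K9me3, p53 and the untagged control are empty at all 4 genes.

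The de novo enzymes had little H3K27ac at their starts, and inside both genes regions were listed after doxorubicin that the vehicle list lacked. Dnmt3a (chr12:3801559-3914443, plus strand) had its leading site at chr12:3839657-3842713, with 2.00 FPM (34 fragments, interval 1.38 to 2.79) after doxorubicin and no region after vehicle. That level is above the 0.436 FPM at which the vehicle list begins. The window held 13 regions covering 14068 bp after doxorubicin and 8 covering 5689 bp after vehicle. Of its 17 sites, 9 were found only in the doxorubicin list, 5 only in the vehicle list and 3 in both. At start 2 the pileup was 0.646 FPM after doxorubicin and 1.02 after vehicle, a ratio of 0.635 (interval 0.276 to 1.38) on 11 and 21 fragments. Around start 3, 90185 bp into the gene, no region was listed after doxorubicin and 1 of 0.436 FPM after vehicle, the lowest value that list holds.

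Dnmt3b (chr2:153649411-153687730, plus strand) was the sparsest of the 10 genes together with Ehmt1. It had 4 regions covering 2904 bp after doxorubicin and 1 region of 293 bp after vehicle, and no site was in both lists. The leading site, chr2:153660157-153661408, had 1.06 FPM (18 fragments) after doxorubicin, 11770 bp from the 5′ end, and a second site reached the same pileup. At the start, the CpG-rich promoter shown above, there were 0.587 FPM (10 fragments) after doxorubicin and no region after vehicle. The vehicle region lay outside the gene with 0.581 FPM (12 fragments). The 4 doxorubicin sites had 8 to 18 fragments, where that list begins at 8.

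Dnmt3l (chr10:78042287-78063622, plus strand), the cofactor of the de novo enzymes, showed almost equal values. The leading site, chr10:78036527-78040016, lies upstream and had 2.64 FPM (45 fragments) after doxorubicin and 2.47 FPM (51 fragments) after vehicle. The ratio was 1.07, with an interval from 0.700 to 1.63. Start 1 had 0.939 FPM after doxorubicin and 0.920 after vehicle, and start 2 had 0.998 FPM after doxorubicin and 0.969 after vehicle. Only start 3, 13048 bp into the gene, differed by more than 1.5-fold, with 1.94 FPM after doxorubicin and 1.02 after vehicle, a ratio of 1.90 (interval 1.07 to 3.46). Another site in the gene body, 17262 bp from the 5′ end, had 1.12 FPM after doxorubicin and was not listed after vehicle.

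Among the H3K9 writers, Setdb1 (chr3:95323525-95357202, minus strand) had less H3K27ac after doxorubicin at a site inside the gene. That site, chr3:95341331-95345192, had 1.94 FPM (33 fragments, interval 1.33 to 2.72) after doxorubicin and 3.83 FPM (79 fragments, interval 3.03 to 4.77) after vehicle. The ratio was 0.506 (interval 0.327 to 0.769), and the summits lay 13682 bp from the 5′ end after doxorubicin and 13713 bp after vehicle, close to the same base. At the start of Setdb1 the pileup was 1.12 FPM after doxorubicin and 1.45 after vehicle, a ratio of 0.768 with an interval of 0.408 to 1.41. Of the 9 sites in both lists, 3 were at least 1.5-fold lower after doxorubicin and 2 at least 1.5-fold higher. Among the higher ones, chr3:95316905-95321394 beyond the 3′ end, had 2.23 FPM after doxorubicin and 1.36 after vehicle, with an interval of the ratio from 0.983 to 2.78.

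Trim28 (chr7:13024152-13031032, plus strand), the corepressor that brings Setdb1 to KRAB zinc fingers, held large sites outside the gene whose differences had opposite directions. The leading site upstream, chr7:13008169-13020041, had 3.93 FPM (67 fragments) after doxorubicin and 5.52 FPM (114 fragments) after vehicle, a ratio of 0.712 (interval 0.519 to 0.972) that did not reach 1.5-fold. It overlaps Zbtb45 (chr7:13005666-13010047), and its doxorubicin summit lies 10617 bp before Trim28 and thus just beyond the 10000 bp. At the start of Trim28 itself, the pileup was 2.11 FPM (36 fragments) after doxorubicin and 3.29 FPM (68 fragments) after vehicle. That ratio was 0.642, with an interval from 0.416 to 0.975, and passed 1.5-fold. Beyond the 3′ end, chr7:13031693-13039468 had 4.05 FPM after doxorubicin and 2.66 after vehicle, a ratio of 1.52 (interval 1.05 to 2.21). The window therefore held less H3K27ac at the start and more beyond the end after doxorubicin.

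Ehmt1 (chr2:24790769-24919643, minus strand), the longest of the 10 genes, had many small regions after doxorubicin. There were 10 covering 6009 bp after doxorubicin and 1 of 264 bp after vehicle, and no site was in both lists. The 10 doxorubicin sites ranged from 0.470 to 1.06 FPM, with the highest, chr2:24791430-24793116, at 18 fragments near the 3′ end. The vehicle region had 0.630 FPM (13 fragments) and lay 480 to 743 bp inside the 5′ end, where doxorubicin had 0.939 FPM (16 fragments) just outside it. The 2 regions at the start do not touch and count as separate sites, and within 1000 bp of the start the ratio was 1.49 (interval 0.673 to 3.37).

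Ehmt2 (chr17:34898463-34914073, plus strand) showed similar values at its leading site, chr17:34892930-34894232, with 2.17 FPM (37 fragments) after doxorubicin and 2.18 FPM (45 fragments) after vehicle. The ratio was 0.997 (interval 0.627 to 1.57). The site lies upstream, and its doxorubicin summit is 532 bp from an end of Zbtb12. Within 1000 bp of the starts the highest region had 1.29 FPM after doxorubicin and 1.31 after vehicle, but these are different sites. The site just upstream of the 5′ end had a ratio of 0.943 (interval 0.507 to 1.73), and the one inside the gene 1.40 (interval 0.725 to 2.74). Of 8 sites in both lists 7 differed by less than 1.5-fold. The eighth, upstream, is the site with p53 described below.

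Cbx5 (chr15:103191546-103239904, minus strand), which encodes the reader HP1 alpha, had its leading site over the 5′ end at chr15:103238763-103241924. It reached 3.99 FPM (68 fragments) after doxorubicin and 6.49 FPM (134 fragments) after vehicle, a ratio of 0.615 (interval 0.452 to 0.829). The intervals of the pileups, 3.10 to 5.06 after doxorubicin and 5.44 to 7.69 after vehicle, did not overlap. Hnrnpa1, an RNA-binding protein gene that starts on the opposite side with 38 bp between the genes, shares this site, and both summits lie inside Hnrnpa1, so the value cannot be given to either gene alone. At start 2, well inside Cbx5, the pileup was 0.939 FPM (16 fragments) after doxorubicin and 1.50 FPM (31 fragments) after vehicle, a ratio of 0.626 with an interval of 0.320 to 1.18. Of 18 sites, 9 were in the vehicle list alone, with 0.436 to 1.02 FPM, and 3 in the doxorubicin list alone. It was the gene with the most sites in the vehicle list alone.

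**Figure D4:**
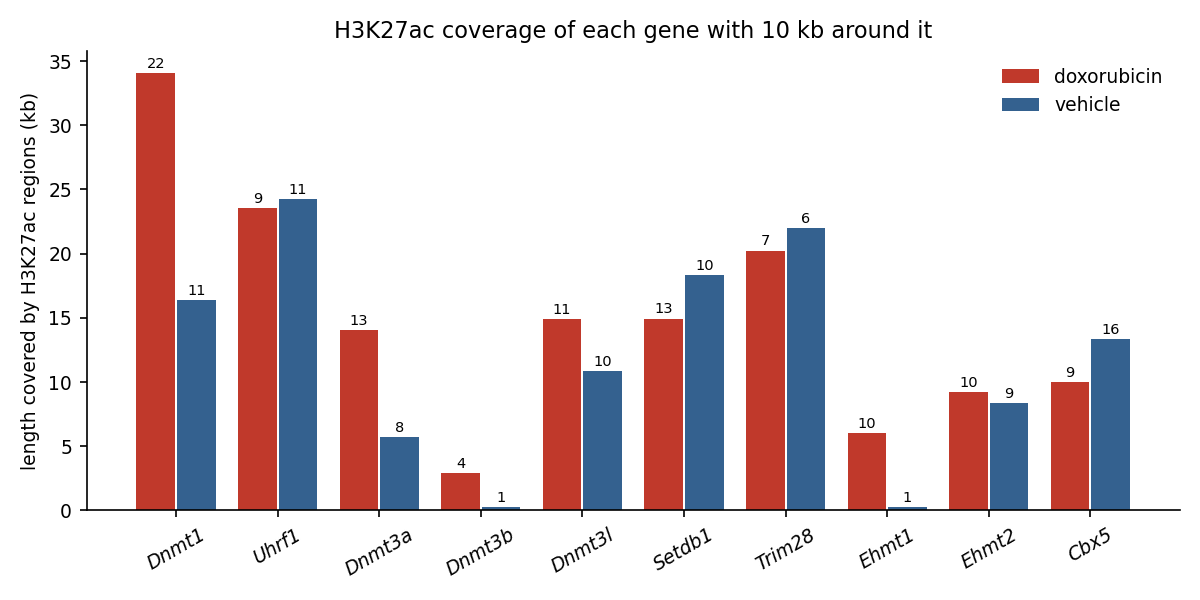
Length in kb covered by H3K27ac regions in the window of each gene after doxorubicin (left bar, red) and after vehicle (right bar, blue), with the number of regions above each bar. Dnmt1 has 22 regions after doxorubicin and 11 after vehicle, and Ehmt1 has 10 after doxorubicin and 1 after vehicle.

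Covered length was at least 1.5-fold greater after doxorubicin at 4 of the 10 genes, Dnmt1, Dnmt3a, Dnmt3b and Ehmt1, where 37.7% of protein-coding genes with regions in both lists were, and at least 1.5-fold smaller at 0 of 10, where 9.53% were. Over the 119 H3K27ac sites of the 10 windows, 38.7% were listed after doxorubicin alone, 17.6% after vehicle alone and 43.7% in both, against 40.3%, 18.3% and 41.4% of the 129183 sites on chromosomes 1 to 19, X and Y. These shares are near those of the whole genome. Around the first listed start, within 1000 bp, 9 of the 10 genes had H3K27ac after doxorubicin, where 52.2% of protein-coding genes had it, and 7 after vehicle, where 49.5% had it. Dnmt3a counted after doxorubicin alone because its site lies at the edge of the 1000 bp, which only the doxorubicin region reached. That site had 0.646 FPM after doxorubicin and 1.02 after vehicle. Of the 7 genes with H3K27ac after both treatments, 3 were at least 1.5-fold lower after doxorubicin (Uhrf1, Trim28 and Cbx5) and 0 higher. The same count over 7890 protein-coding genes was 12.9% lower and 15.9% higher, and the median log2 ratio was -0.38 in the 7, against 0.00 over those genes.

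A p53 region was present in the windows of 3 genes, Dnmt1, Dnmt3a and Ehmt2, where 25.0% of protein-coding genes had one. None of the 3 regions overlapped a region of the untagged control or the input, and none lay within 1000 bp of any of the 19 starts. Fold enrichments and q values are those of the authors' peak caller. Of the 11282 p53 regions, 11222 were on chromosomes 1 to 19, X and Y, and their median fold enrichment was 7.56, and the values at Dnmt1 and Ehmt2 were below it.

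At Dnmt3a the p53 region, chr12:3841029-3841671, had a pileup of 4.07 FPM at 10.8-fold enrichment, with 45.9 as its −log10 q. It lies inside the gene, 39811 bp from the 5′ end, and 65.7% of p53 regions had a lower fold. It falls within the leading H3K27ac site of the gene, the site with 2.00 FPM after doxorubicin and no region after vehicle, and the summits of p53 and of doxorubicin H3K27ac are 17 bp apart. At Dnmt1 the region, chr9:20932990-20933295, had 1.72 FPM at 4.68-fold enrichment, 9.16 as its −log10 q, with 21.8% of p53 regions lower. It also lies inside the gene, 26764 bp from the 5′ end, in a site with 1.82 FPM H3K27ac after doxorubicin (31 fragments) and 0.823 after vehicle (17 fragments). That ratio was 2.21 (interval 1.19 to 4.26). At Ehmt2 the region, chr17:34890169-34890488, lies in no annotated gene, 8155 bp upstream, with 2.48 FPM at 6.01-fold enrichment and 17.9 as its −log10 q. H3K27ac there was 2.64 FPM after doxorubicin (45 fragments) and 1.31 after vehicle (27 fragments), a ratio of 2.02 (interval 1.23 to 3.39).

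At all 3 places H3K27ac was thus either higher by at least 1.5-fold after doxorubicin or listed after doxorubicin alone. This was common at p53 regions: of these 11222, 27.8% had H3K27ac after doxorubicin alone and 0.463% after vehicle alone, and of the 5000 with it in both lists 74.0% were at least 1.5-fold higher and 1.44% lower after doxorubicin. The other 7 genes had no p53 region in their windows, and the nearest one lay 77150 bp from Uhrf1, 59127 bp from Setdb1 and 171186 bp from Cbx5. The closest p53 region outside any window was 23712 bp from Dnmt1. The untagged control had 1 region among the 10 windows, at chr2:153694506-153694929 beyond the 3′ end of Dnmt3b, with 5.04 FPM and a fold enrichment of 13.9, where 5.54% of protein-coding genes had one, and neither p53 nor the input had a region there. The input had 0 regions in the 10 windows, against 2.06% of protein-coding genes.

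**Figure D5:**
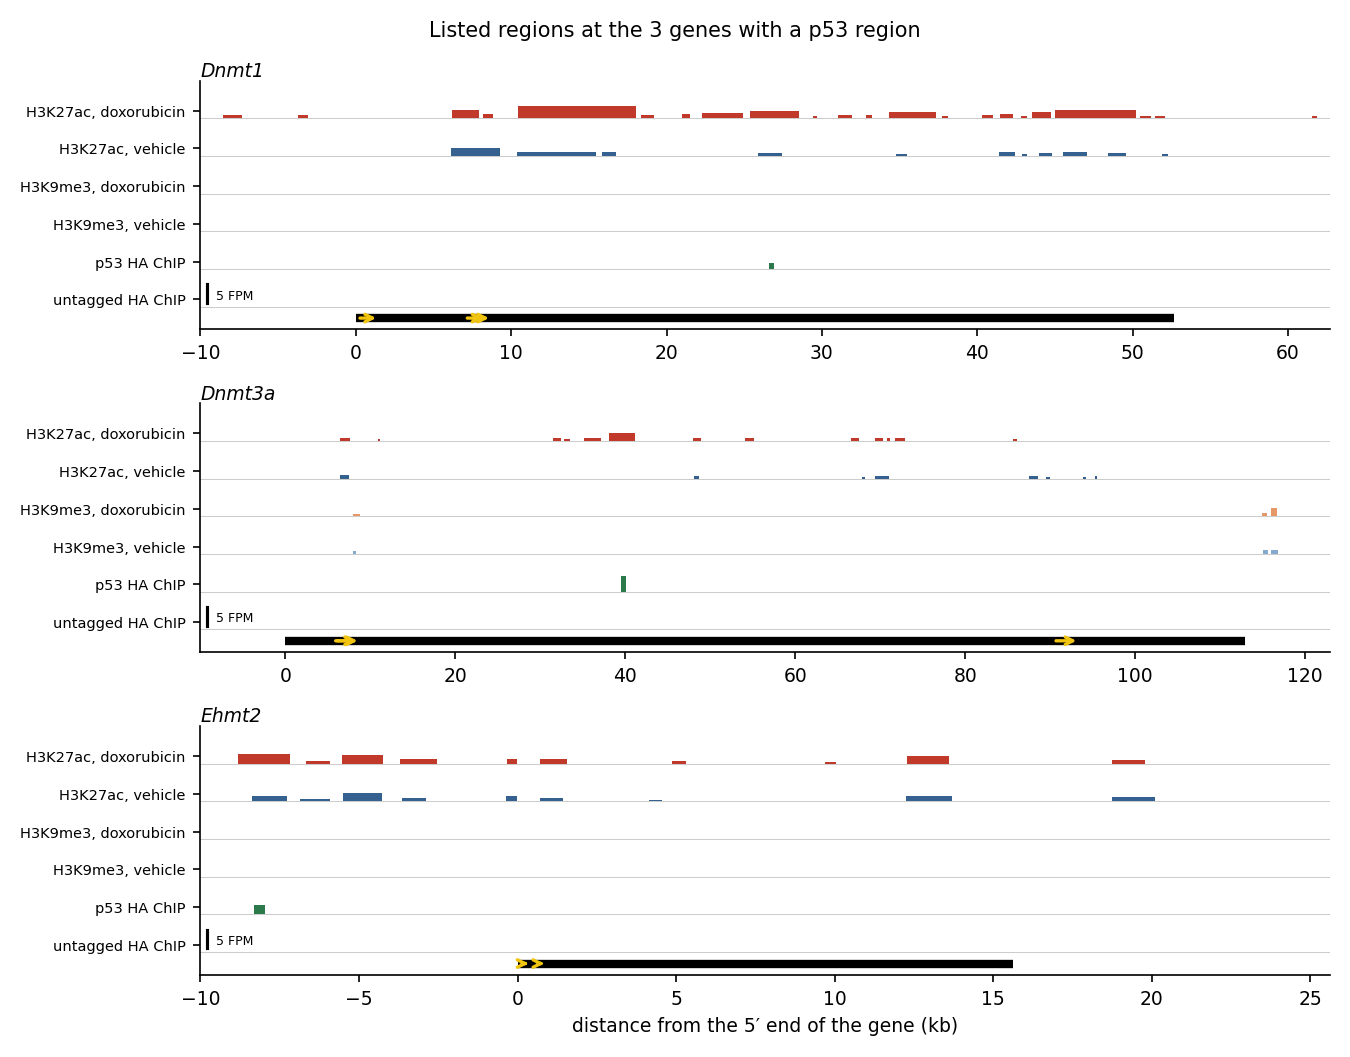
Listed regions at Dnmt1, Dnmt3a and Ehmt2, drawn 5′ to 3′ by distance from the 5′ end in kb, with bar heights as pileup in FPM (scale bar 5 FPM), genes in black and annotated starts as yellow arrows. The p53 region of Dnmt3a (4.07 FPM) sits on an H3K27ac region of 2.00 FPM after doxorubicin where the vehicle row is empty, and those of Dnmt1 and Ehmt2 sit on H3K27ac regions that are higher after doxorubicin.

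H3K9me3, the mark that Setdb1 makes and Cbx5 binds, was listed in the windows of 3 genes after doxorubicin (Dnmt3a, Dnmt3b and Ehmt1), where 47.6% of protein-coding genes had it, and of 2 after vehicle (Dnmt3a and Ehmt1), where 42.1% had it. The count depended on the window: with 25000 bp it was 7 after doxorubicin and 6 after vehicle. The share of all protein-coding genes with that wider window was not computed, so these counts have no background beside them. H3K9me3 was within 1000 bp of 0 of the 19 starts after either treatment. Around the first listed start, 3.18% of protein-coding genes had it after doxorubicin and 2.56% after vehicle, so 0 is near the share of all genes. At Dnmt3a the leading site, chr12:3917517-3918301, lies beyond the 3′ end and had 2.15 FPM (31 fragments) after doxorubicin and 1.13 FPM (18 fragments) after vehicle, a ratio of 1.91 (interval 1.04 to 3.63). Its neighbour, chr12:3916511-3917206, had 0.903 FPM after doxorubicin and 1.13 after vehicle, a ratio of 0.802 (interval 0.361 to 1.73), and the single site inside the gene had 0.694 FPM after doxorubicin and 0.688 after vehicle. At Ehmt1 the leading site, chr2:24785432-24786108, also beyond the 3′ end, had 1.18 FPM (17 fragments) after doxorubicin and 0.688 FPM (11 fragments) after vehicle, a ratio of 1.72 (interval 0.758 to 4.05). A second Ehmt1 site, 0.938 FPM (15 fragments), was listed after vehicle alone. At Dnmt3b a region of 0.625 FPM (9 fragments) was listed after doxorubicin alone, 4490 bp beyond the gene.

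Both genes with a leading H3K9me3 site in both lists were at least 1.5-fold higher after doxorubicin, where 25.6% of protein-coding genes were, and 0 were lower, where 2.03% were. H3K9me3 ratios of all sites found in both lists had a median log2 of 0.34. Lowering every ratio by that amount leaves Dnmt3a past 1.5-fold and not Ehmt1, and Ehmt1 also misses it with the highest region of each list (log2 0.33). With a window of 1000 bp the log2 ratio at Dnmt3a was 0.014 and Ehmt1 had no site. Just outside the windows, 11150 bp from Setdb1, H3K9me3 of 4.17 FPM was listed after doxorubicin, and 11679 bp from it 3.13 FPM after vehicle. A region of 0.833 FPM after doxorubicin lay 10829 bp from Ehmt2.

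A list of 41 other genes of DNA methylation and H3K9 silencing was looked up in the same way, covering TET enzymes, methyl-CpG binders, H3K9 methyltransferases and demethylases, HP1 and HUSH proteins and their partners. All 41 had H3K27ac in their windows after either treatment, where 77.4% of protein-coding genes had it after doxorubicin and 71.9% after vehicle. The leading site was in both lists at 39, and it was at least 1.5-fold higher after doxorubicin at 4, where 25.6% of protein-coding genes were, and at least 1.5-fold lower at 8, where 12.2% were, with a median log2 ratio of -0.27. The 4 with a higher leading site, which may lie outside the gene, were Chaf1b, Tet3, Dppa3 and Mbd2. Chaf1b, a subunit of the chromatin assembly factor CAF-1, had 12.8 FPM after doxorubicin and 1.74 after vehicle. Tet3 encodes a 5-methylcytosine dioxygenase, the product of Dppa3 inhibits Uhrf1, and Mbd2 is a methyl-CpG binder. Tet3 had 3.05 FPM after doxorubicin and 1.11 after vehicle, and Mbd2 had 1.94 after doxorubicin and 0.775 after vehicle. Dppa3 had 2.99 after doxorubicin and 1.11 after vehicle at its leading site. Its window held 4 regions after doxorubicin and 12 after vehicle, and only the vehicle list had one within 1000 bp of a gene end. The 5 lowest ratios were at Wiz, a partner of Ehmt1 and Ehmt2 (0.479, interval 0.308 to 0.729), the chromatin remodeller Smarcad1 (0.561, interval 0.354 to 0.871), Mphosph8 of the HUSH complex (0.606, interval 0.371 to 0.970), Morc2a (0.614, interval 0.404 to 0.919) and the DNA glycosylase gene Tdg (0.619, interval 0.429 to 0.882).

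A p53 region was in the windows of 10 of the 41, where 25.0% of protein-coding genes had one. The highest fold enrichments were in the windows of Chaf1b (93.0), the KRAB zinc finger gene Zfp809 (62.1) and Morc3 (26.2). The others were at Tet1 (6.74), Tet3 (5.46), Kdm4c (5.17), Atf7ip, a partner of Setdb1 (5.14), Mbd2 (4.97), Chaf1a (4.52) and Tasor of the HUSH complex (3.06). The regions of Chaf1b, Zfp809 and Morc3 lay 29409, 1449 and 20351 bp from the nearest annotated start of the gene. None of them was within 1000 bp of an end of its gene. The windows of Chaf1b and Morc3 also each held an input region of 0.784 FPM. H3K9me3 was in the windows of 17 of the 41 after doxorubicin, where 47.6% of protein-coding genes had it, and of 19 after vehicle, where 42.1% had it. Among the 10 genes above, no p53 region had a fold enrichment as high as those in the windows of Chaf1b, Zfp809 or Morc3. The highest was 10.8 at Dnmt3a.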

How the data were processed

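H3K27ac, H3K9me3 and HA ChIP and input DNA were sequenced from 14 libraries in 7 groups. Reads were aligned with Bowtie2 2.2.6 and peaks called with MACS2 2.2.5, per the submitters' processing notes, on mm10. The authors called 1 list on the 2 pooled libraries of each group. Per the file headers, duplicates were reduced to 1 fragment and the q-value threshold was 0.05. The HA lists were called against the input and the others without a control. The deposited signal is pileup, the fragments over a summit. The deposited fold enrichment is the ratio of pileup to background, and the deposited q-value is given as −log10.

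Summits of an interval were joined into 1 region with the values of its highest summit, and an overlap was 1 bp or more. FPM is pileup per 1000000 fragments left after duplicate removal, or per 1000000 of the input for HA lists. Genes and promoters came from RefSeq tables of GRCm38.p6, whose build is that of mm10. All 10 genes and all 41 of the further list matched. The genes, lists and comparisons were chosen with earlier results of these data known. Genes named beside the 10 are neighbours with an end within 1000 bp of a leading site, genes of the further list with a p53 region or among the 5 in each direction with the largest H3K27ac ratio past 1.5-fold, and 5 p53 targets. No exon annotation was used, so exons, introns and UTRs are not told apart. The computations ran in Python 3.11.15 with scipy 1.17.1, pandas 2.3.3 and numpy 2.4.6, figures were drawn with matplotlib 3.10.9, and the steps were tested on simulated lists. Alternatives covered the window, the −log10 q, the place of the summit, the scaling, the choice of region, fold enrichment in place of pileup and equal list lengths. An alternative at the first listed start was added after seeing the data.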

Additional observations from a re-analysis of the deposited data

How the results depend on the processing

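Uhrf1, Setdb1 and Cbx5 stayed at least 1.5-fold lower in H3K27ac after doxorubicin under all 9 other settings of window, threshold, summit, scaling, region and fold enrichment. Under the window, threshold, summit and region settings the log2 ratios at Uhrf1 (-0.91) and Cbx5 (-0.70) did not change, because the same regions were compared. Each scaling setting moved all ratios by 1 fixed amount. Most of these settings are therefore not separate checks of the difference. At the first listed start, an alternative chosen after seeing the data, Uhrf1 and Cbx5 again gave the same values and Setdb1 (log2 -0.38) did not pass 1.5-fold. The log2 ratio at Dnmt1 was -0.36 with a window of 25000 bp, because a site farther out then leads. With a window of 1000 bp or with the summit required inside the window, the leading site of Trim28 became the one beyond its 3′ end, with a log2 ratio of 0.60. The median H3K27ac log2 ratio of the genes, -0.49, was 0.32 with a window of 1000 bp and 0.19 with the highest region of each list. The median for H3K9me3, 0.86 over 2 genes, was 0.014 over 1 gene with a window of 1000 bp, 0.46 over 5 genes with 25000 bp, 0.51 with scaling to shared sites, 0.63 with the highest region of each list and 0.77 with fold enrichment. Windows of 1000 bp and 25000 bp held H3K9me3 at 1 and 7 genes after doxorubicin and at 1 and 6 after vehicle. The count of genes with a p53 region was 3, or 2 with windows of 1000 and 5000 bp. For windows other than 10000 bp, the shares of all protein-coding genes were not computed. With the summit required inside the window the median for H3K27ac was -0.01. Trim28 was at least 1.5-fold lower with scaling to shared sites (-0.65), with fold enrichment (-0.67) and at the first listed start (-0.64). Dnmt3l passed 1.5-fold with a window of 1000 bp (0.93) and was below 0 with scaling to shared sites (-0.07) and with fold enrichment (-0.09). Ehmt2, at -0.01, was 0.32 with a window of 1000 bp and 0.28 with the highest region of each list. For H3K9me3, Ehmt1 did not pass 1.5-fold with scaling to shared sites (0.44) or with the highest region of each list (0.33), and Dnmt3a did not with a window of 1000 bp (0.014). No paired analysis was possible because the libraries of a group were pooled before peak calling, and leaving out each replicate could not be run. Values of 8 to 20 fragments have wide intervals, and differences at Dnmt3b, Ehmt1 and the starts of Dnmt3a were not resolved at this depth.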
